A study of Mus musculus with 30 samples.

Results

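The 43 genes described here code for the proteasome, the barrel-shaped protease that degrades proteins tagged with ubiquitin. They are all measured genes whose symbol starts with Psma, Psmb, Psmc, Psmd or Psme and a digit, and they are 43 of the 11463 genes measured in mouse mammary glands. By role, 7 are alpha-ring genes, 7 are constitutive beta-ring genes and 3 code for the immune beta subunits Psmb8, Psmb9 and Psmb10. Of the rest, 6 are ATPases of the regulatory cap, 14 are other cap subunits and base chaperones, and 4 are activators. The 2 others, Psmc3ip and Psme3ip1, share only the letters, since they name proteins that bind Psmc3 or Psme3.

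The proteasome core is a stack of rings in which outer alpha subunits gate the channel and inner beta subunits carry the cutting sites. Psmb5 carries the chymotrypsin-like site, Psmb6 the caspase-like site and Psmb7 the trypsin-like site. Interferon, above all interferon gamma, induces Psmb8, Psmb9 and Psmb10, which take the place of Psmb5, Psmb6 and Psmb7 in newly built cores. The resulting immunoproteasome, together with the interferon-induced activator made of Psme1 and Psme2, favours peptides that fit MHC class I. Leukocytes carry immune subunits also without added interferon, whereas most other cells use the constitutive ones.

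RNA came from whole inguinal mammary glands of mice aged 19 weeks on the 129sv background. There were 9 Her2/Neu+/IFNAR1-/- glands, 6 Her2/Neu+ glands, 8 IFNAR1-/- glands and 7 WT glands, with 1 array each. Her2/Neu+ mice carry the Her2/Neu oncogene, a receptor tyrosine kinase that drives mammary carcinoma, and IFNAR1-/- mice lack a chain of the type I interferon receptor; the double genotype has both. The promoter of the transgene and the way Ifnar1 was inactivated are not given in the sources used here. Gland RNA was labelled with Cy5 and a universal mouse reference RNA with Cy3, and each value is the log2 ratio of gland over reference, so 0 means the level of the reference and a negative value a lower one. A difference of 1 on this scale is a doubling.

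The promoters of the member genes were searched on both strands for 3 short motifs, of which 2 answer to interferon. Promoters of the RefSeq assembly GRCm38.p6, from 250 bases before to 50 bases after the start, were at hand for 37 of the 43 genes. The core of the interferon-stimulated response element was searched as GAAA, any 2 bases and again GAAA, the interferon-gamma-activated site as TTCNNNGAA, and the core of the antioxidant response element as TGACNNNGC. The last is bound by factors of the Nfe2 family that drive constitutive proteasome genes. The motifs were searched separately, so that matches of different motifs may overlap. An immune subunit and an immune activator with an interferon motif, Psmb8 and Psme1, and the constitutive subunits Psmb5 and Psmb6 with the antioxidant motif, show what these elements look like. Capitals mark the match.
Psmb8: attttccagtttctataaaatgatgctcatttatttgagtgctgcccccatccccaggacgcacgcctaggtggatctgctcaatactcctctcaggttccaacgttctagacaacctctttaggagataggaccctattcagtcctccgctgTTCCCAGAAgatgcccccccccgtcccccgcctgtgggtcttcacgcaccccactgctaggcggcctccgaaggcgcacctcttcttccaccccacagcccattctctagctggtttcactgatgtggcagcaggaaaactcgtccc
Psme1: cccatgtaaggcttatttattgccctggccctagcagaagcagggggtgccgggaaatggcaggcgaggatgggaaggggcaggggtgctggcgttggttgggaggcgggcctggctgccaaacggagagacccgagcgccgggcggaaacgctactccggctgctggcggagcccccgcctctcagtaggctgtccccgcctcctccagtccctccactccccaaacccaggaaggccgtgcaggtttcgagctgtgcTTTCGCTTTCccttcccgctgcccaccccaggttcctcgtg
Psmb5: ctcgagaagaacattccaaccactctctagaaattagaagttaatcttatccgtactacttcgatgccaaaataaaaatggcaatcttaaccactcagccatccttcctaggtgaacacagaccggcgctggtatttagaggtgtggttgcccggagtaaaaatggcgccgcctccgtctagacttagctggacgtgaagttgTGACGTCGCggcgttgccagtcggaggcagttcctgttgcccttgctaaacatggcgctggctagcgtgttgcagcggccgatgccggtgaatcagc
Psmb6: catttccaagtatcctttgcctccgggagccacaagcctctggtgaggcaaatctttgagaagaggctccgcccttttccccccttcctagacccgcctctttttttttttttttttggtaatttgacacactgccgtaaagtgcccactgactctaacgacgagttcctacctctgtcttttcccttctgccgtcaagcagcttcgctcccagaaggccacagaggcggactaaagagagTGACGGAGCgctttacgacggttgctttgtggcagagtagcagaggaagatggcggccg

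The Psmb8 window is chr17:34197945-34198244 on the + strand, with the match starting at -97 from the start site. The Psme1 window is chr14:55578244-55578543 on the + strand, with the match on the opposite strand starting at 9 after the start site. The Psmb5 window is chr14:54617946-54618245 on the - strand, with the match at -47. The Psmb6 window is chr11:70525107-70525406 on the + strand, with the match at -9. The 37 member genes have 41 promoters. The response element core stood in 4 of the 37 member genes (Psmb3, Psmd4, Psmd9 and Psme1). It was in 9.76% of their promoters, while 3.46% of all 32619 promoters held it. The gamma-activated site stood in 2 member genes (Psmb8 and Psmd2), or 4.88% of the member promoters, against 8.34% of all promoters. The other immune-set genes, Psmb9, Psmb10 and Psme2, held neither of these interferon motifs. The antioxidant core stood in 6 (Psmb5, Psmb6, Psmc6, Psmd9, Psmd12 and Psme4), or 14.6% of the member promoters, against 12.4% of all promoters. A match describes the letters in this window and no binding was measured. Psmb9 and Psmb8 are neighbours on chromosome 17 and alternate there with Tap1 and Tap2, the peptide transporter genes.

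Each array gave 17485 to 20801 probe values, and array pairs correlated at 0.345 to 0.858 across probes. The 30 arrays lie on 8 slides inferred from the labelled block numbers and the sample order, and on the last slide 3 arrays stood apart: Her2/Neu+ 114, Her2/Neu+ 119 and IFNAR1-/- 41. On these 3 arrays the 10 Psme1 probes spread with an SD of 0.837 to 1.35, against 0.0751 to 0.437 on the other 27. Without that slide 34 of the 215 member differences, 43 genes in 5 contrasts, changed sign, none of them past the threshold below, 50 others shrank by more than 1.5 times and 41 grew by more than that. Values without it are given beside the differences described in detail that changed so. Ifnar1, read by 2 probes and with a value on 8 of the 9 Her2/Neu+/IFNAR1-/- arrays, had medians of 0.65, 0.14, -0.06 and 0.06 in Her2/Neu+/IFNAR1-/-, Her2/Neu+, IFNAR1-/- and WT glands, and no contrast passed the test. Erbb2, the gene of Her2, had medians of 0.30, 0.50, 0.33 and -0.00 in the same order, also with no contrast past the test. Where the Ifnar1 probes lie relative to the inactivated part and whether the Erbb2 probes read the transgene are not given in the sources used here, so neither checks the genotypes. Markers of adipocytes averaged 5.12 to 5.29 per group, those of luminal epithelium 1.72 to 2.39 and those of basal epithelium 1.49 to 2.07, all above the reference as group means.

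**Figure D1:**
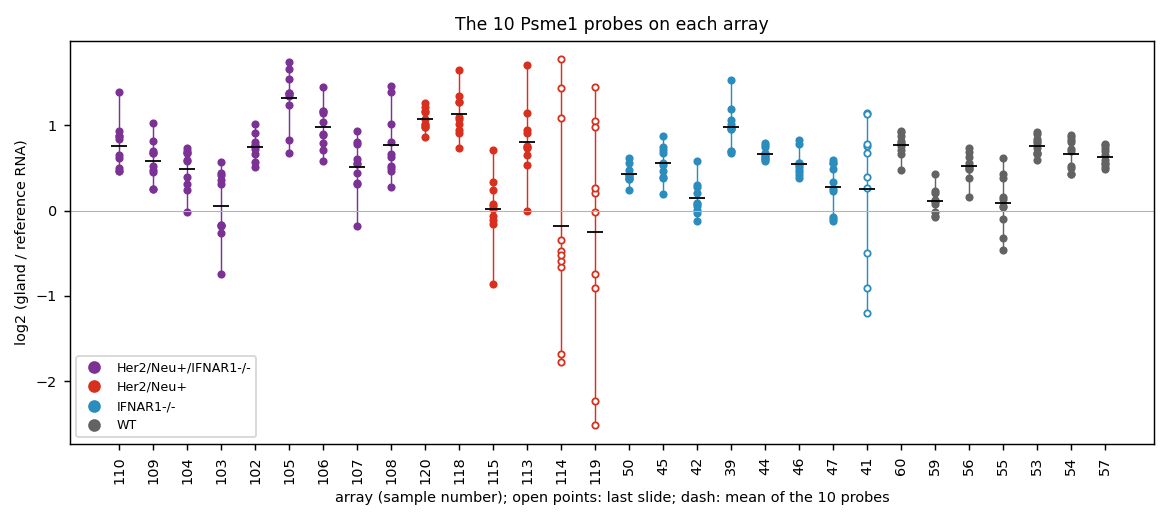
The 10 probes of Psme1 on each of the 30 arrays, as log2 ratio of gland over reference; each point is a probe, the dash is the mean of the 10 and arrays are named by sample number and coloured by group. On the 3 arrays of the last slide (open points) the SD of the probes is 0.837 to 1.35, and on the other arrays it is at most 0.437.

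Relative to the reference RNA, the immune set stood high and most of the remaining proteasome genes stood low in every genotype. All 5 genes of the immune set, Psmb8, Psmb9, Psmb10, Psme1 and Psme2, had a mean above 0 over the 30 arrays, between 0.54 for Psme1 and 1.55 for Psmb9, with a set median of 0.78. Of the 38 other genes 9 were above 0, and their median was -0.43. Over all genes measured, 54.4% were above 0. None of the 7 alpha-ring genes was above 0, and they ranged from -1.01 for Psma6 to -0.27 for Psma7. Of the 7 constitutive beta genes, Psmb6 alone was above 0, at 0.21, and Psmb7 was lowest at -1.42. These values set each gene against the same gene in the reference RNA, so they do not rank the genes by amount. In whole glands, fewer cells of a type and less RNA per cell cannot be told apart.

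**Figure D2:**
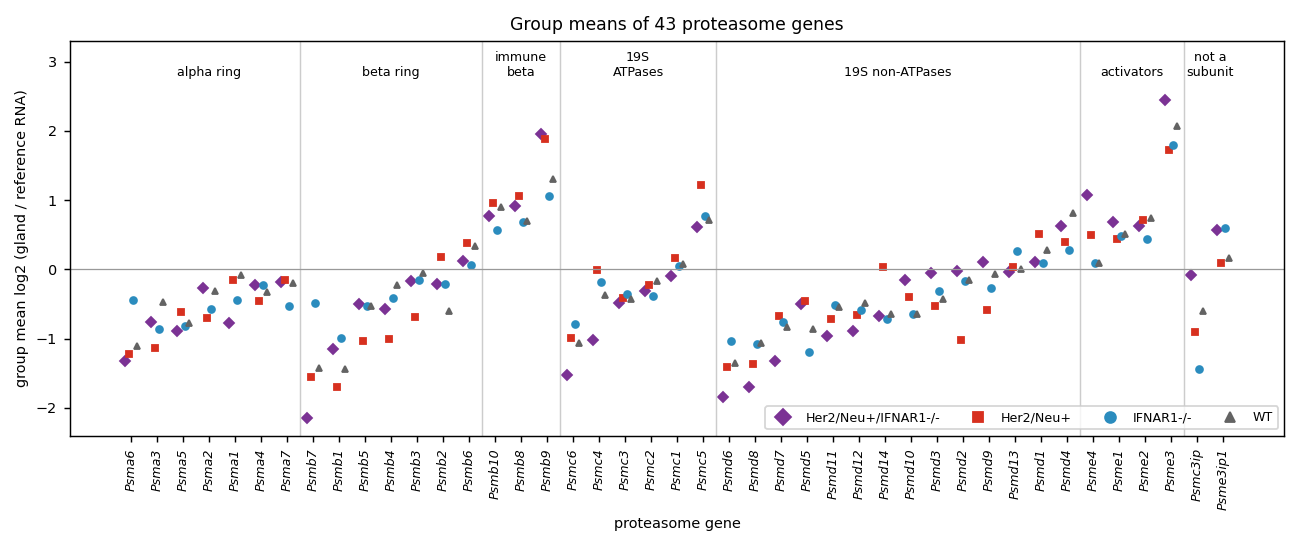
Group means of the 43 proteasome genes, as log2 ratio of gland over reference, ordered within each role by the mean over all arrays. The 3 immune beta genes and the 4 activators have overall means above 0, the 7 alpha-ring genes lie below 0, and Psmb7 averages -2.15 in Her2/Neu+/IFNAR1-/- glands and -0.49 in IFNAR1-/- glands.

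Across the 4 pairwise contrasts and the interaction, a single member passed the test. Psmb7 fell in Her2/Neu+/IFNAR1-/- relative to IFNAR1-/- glands, which is 1 of 43 members at an adjusted p under 0.05, where 1.31% of all genes passed. No member passed in the other contrasts, where the test, limma with Benjamini-Hochberg adjustment over all genes, called 0.131% of all genes in Her2/Neu+ against WT, 0.0262% in IFNAR1-/- against WT and 0.0785% in Her2/Neu+/IFNAR1-/- against Her2/Neu+ glands. The interaction, the difference made by losing the receptor in oncogene-bearing glands minus that in glands free of the oncogene, called 0.0174% of all genes and no member. At an unadjusted p under 0.05, 3 members were below the threshold in Her2/Neu+ against WT, 3 in IFNAR1-/- against WT, 9 in Her2/Neu+/IFNAR1-/- against Her2/Neu+, 10 in Her2/Neu+/IFNAR1-/- against IFNAR1-/- and 6 in the interaction. The same threshold was met by 12.1%, 6.87%, 11.2%, 18.5% and 9.62% of all genes in these contrasts. The members' own shares were 6.98%, 6.98%, 20.9%, 23.3% and 13.95%. No member separated 2 groups without overlap, which 0.532%, 0.236%, 0.131% and 0.236% of all genes did in the 4 pairwise contrasts. In none of these 4 contrasts does an inferred slide hold both groups, so slide and genotype cannot be fully told apart for any gene.

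**Figure D3:**
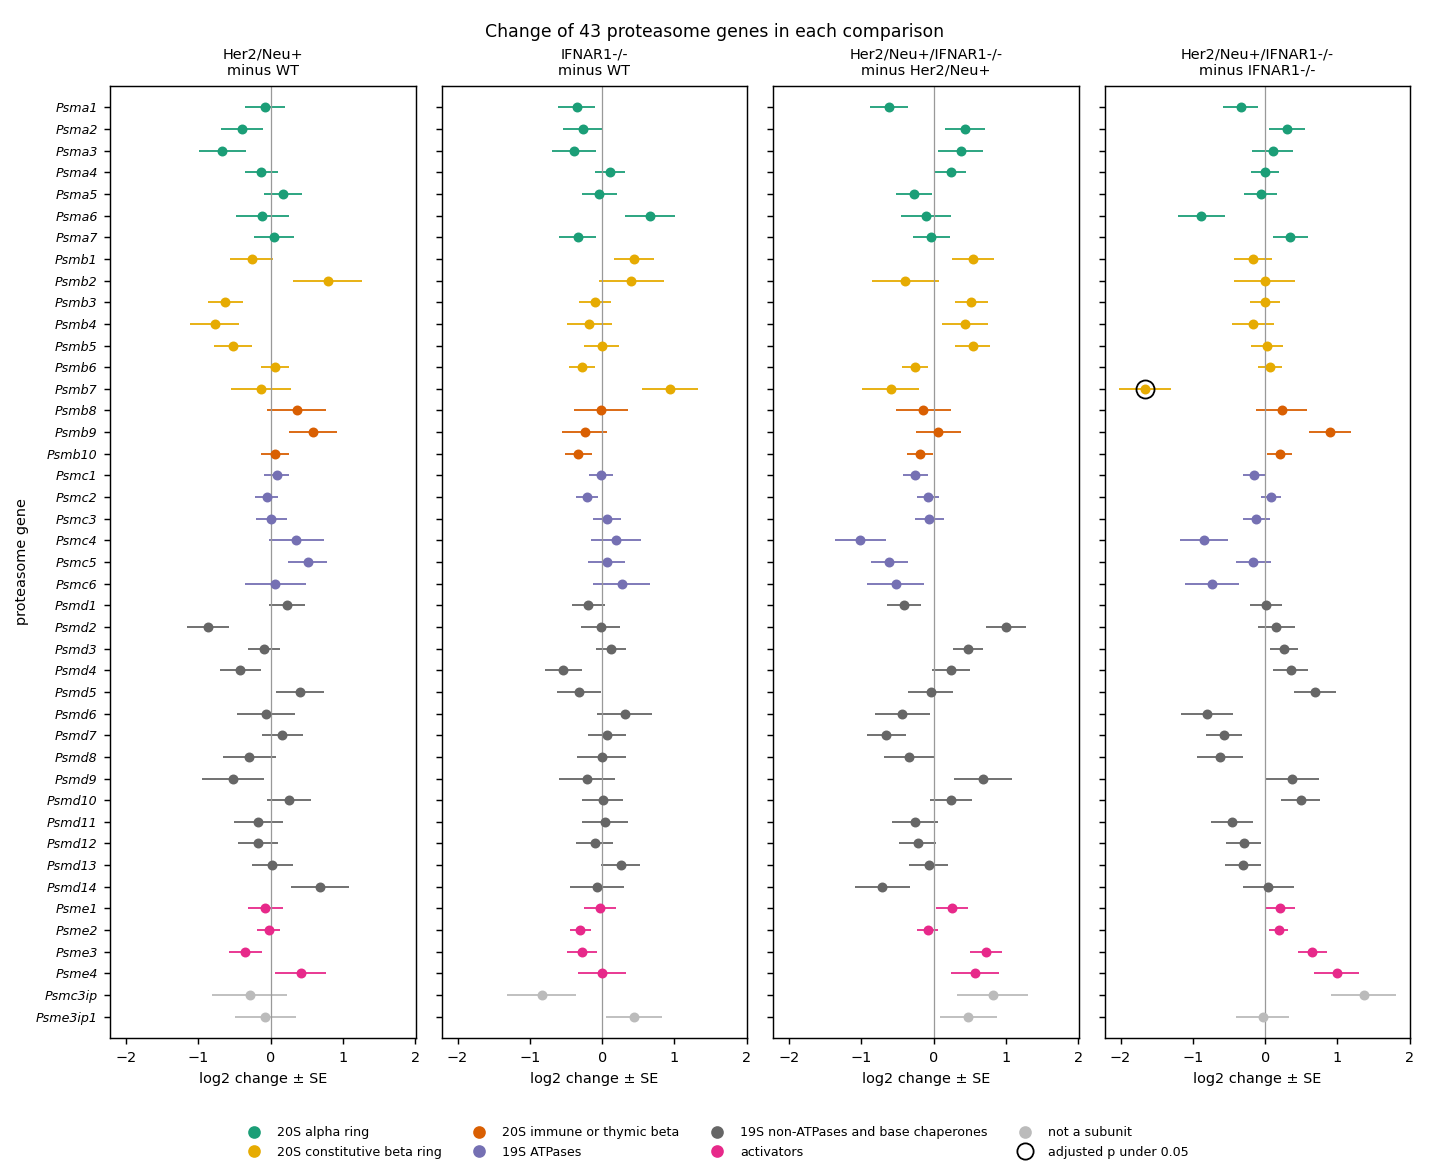
Change of each of the 43 genes in the 4 pairwise contrasts, as log2 difference of group means with its standard error from the fit, coloured by role. The ring marks the only change past an adjusted p of 0.05, Psmb7 in Her2/Neu+/IFNAR1-/- minus IFNAR1-/-, at -1.66.

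Psmb7, the trypsin-like subunit that Psmb10 replaces, was lowest in the double genotype and highest in IFNAR1-/- glands. Its log2 ratio ran from -4.53 to -0.69 with a median of -1.78 in 9 Her2/Neu+/IFNAR1-/- glands, and from -2.04 to -1.19 with a median of -1.50 in 6 Her2/Neu+ glands. It ran from -1.29 to 0.12 with a median of -0.33 in 8 IFNAR1-/- glands, and from -2.01 to -0.05 with a median of -1.48 in 7 WT glands. In 7 of the 9 Her2/Neu+/IFNAR1-/- glands Psmb7 lay below every IFNAR1-/- gland; samples 109 and 106, at -0.69 and -1.26, lay within their range. The lowest value, -4.53, came from sample 110. The Her2/Neu+ glands lay within the span of the WT glands except for sample 113.

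The difference of Psmb7 between Her2/Neu+/IFNAR1-/- and IFNAR1-/- glands was -1.66 ± 0.365 (SE, 95% interval -2.41 to -0.91), or 3.16-fold lower, with a limma adjusted p of 0.0267. Without the last slide it was -1.65 with an adjusted p of 0.0297. Between IFNAR1-/- and WT glands Psmb7 was higher by 0.93 ± 0.389, which did not pass (limma adjusted p = 0.684), although all 8 IFNAR1-/- glands were above the WT mean. Between Her2/Neu+/IFNAR1-/- and Her2/Neu+ glands the difference was -0.59 ± 0.396 (adjusted p = 0.552), and between Her2/Neu+ and WT glands -0.14 ± 0.418 (adjusted p = 0.939), or -0.23 without the last slide. The interaction was -1.53 ± 0.555, with an unadjusted p of 0.0101 and a limma adjusted p of 0.483. The effect of the oncogene on Psmb7 was thus not shown to differ between glands with and without the receptor.

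The size of the Psmb7 difference varied little with the processing, but its call did. Over 16 other settings it lay between -1.87 and -1.61, with adjusted p between 0.00269 and 0.582. With just these 2 groups in the fit it did not pass (-1.66, adjusted p = 0.0698). The call was also lost with slide as a random block (-1.67, adjusted p = 0.129), and no inferred slide holds both groups, so slide and genotype cannot be fully told apart. Within the 2 sets of 15 arrays the difference was -1.67 and -1.61, with adjusted p of 0.582 and 0.103. It was also lost when IFNAR1-/- 44, IFNAR1-/- 47 or Her2/Neu+/IFNAR1-/- 108 was left out, at -1.63, -1.57 and -1.55, with adjusted p of at most 0.0605. The gene was read by 1 probe. Of markers of skeletal muscle, 3 were measured and all were lower in the same contrast, with none called. Their mean per gland ran from -0.16 to 3.86 (median -0.01) in Her2/Neu+/IFNAR1-/- glands and from -1.18 to 5.36 (median 0.02) in IFNAR1-/- glands. Both endothelial markers were lower too (median -0.85, none called). Of 5 measured markers of basal and myoepithelium 3 were lower, with a median of -0.71, and Krt14, a basal keratin, was called with -2.47 ± 0.586 (limma adjusted p = 0.0413). The mean of these 5 ran from 0.04 to 2.22 in Her2/Neu+/IFNAR1-/- glands and from -0.21 to 2.94 in IFNAR1-/- glands. Markers of luminal epithelium were higher in 4 of 6 (median 0.03) and those of adipocytes in 4 of 7 (median 0.10), with none called. The part of these cell types in the Psmb7 difference was not tested.

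Psmb9, the immune partner of Psmb6, had the largest difference of the immune set, which did not pass. Its log2 ratio ran from 1.16 to 2.80 with a median of 1.94 in Her2/Neu+/IFNAR1-/- glands and from 0.33 to 2.78 with a median of 1.99 in Her2/Neu+ glands. It ran from 0.28 to 1.73 with a median of 1.10 in IFNAR1-/- glands and from 0.73 to 1.76 with a median of 1.40 in WT glands. In both pairs of groups that differ in the oncogene the ranges overlapped: 6 of the 9 Her2/Neu+/IFNAR1-/- glands lay above all IFNAR1-/- glands, and 5 of the 6 Her2/Neu+ glands lay above all WT glands. The exception in the oncogene group, Her2/Neu+ 115, was below all WT glands at 0.33.

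Psmb9 was higher by 0.90 ± 0.288 in Her2/Neu+/IFNAR1-/- than in IFNAR1-/- glands (95% interval 0.31 to 1.48, limma adjusted p = 0.0965). With array weights this difference passed (1.00, adjusted p = 0.0415), and over the 16 settings the adjusted p ran from 0.0415 to 0.959. The lowest difference, 0.33, was that of array set 1 and the highest, 1.31, that of array set 2. In Her2/Neu+ against WT glands it was higher by 0.59 ± 0.329 (adjusted p = 0.489). Loss of the receptor gave 0.07 ± 0.312 with the oncogene and -0.24 ± 0.306 without it, with 95% intervals of -0.57 to 0.70 and -0.87 to 0.38. The interaction was 0.31 ± 0.437 (adjusted p = 0.817).

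Psmb8, which replaces Psmb5, varied widely within every group. It ran from -0.42 to 1.67 (median 1.18) in Her2/Neu+/IFNAR1-/- glands and from -0.01 to 2.38 (median 0.96) in Her2/Neu+ glands. In IFNAR1-/- glands it ran from -0.14 to 1.40 (median 0.63) and in WT glands from -0.84 to 1.64 (median 0.83). The 4 groups overlapped, and the 2 highest values of all came from Her2/Neu+ 118 and Her2/Neu+ 120. The largest difference, Her2/Neu+ against WT, was 0.36 ± 0.403 (95% interval -0.47 to 1.18, limma adjusted p = 0.79), and without the last slide it was 0.60 ± 0.450.

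Psmb10, the partner of Psmb7, stayed within a narrow band. It ran from 0.39 to 1.22 (median 0.74) in Her2/Neu+/IFNAR1-/- glands, from 0.56 to 1.31 (median 0.89) in Her2/Neu+ glands, from 0.23 to 1.02 (median 0.47) in IFNAR1-/- glands and from 0.67 to 1.44 (median 0.74) in WT glands. All 30 arrays were above 0. In 6 of 8 IFNAR1-/- glands Psmb10 was below every WT gland, and the difference of -0.33 was not called (limma adjusted p = 0.766). The other differences of Psmb10 were 0.20 or less in size.

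**Figure D4:**
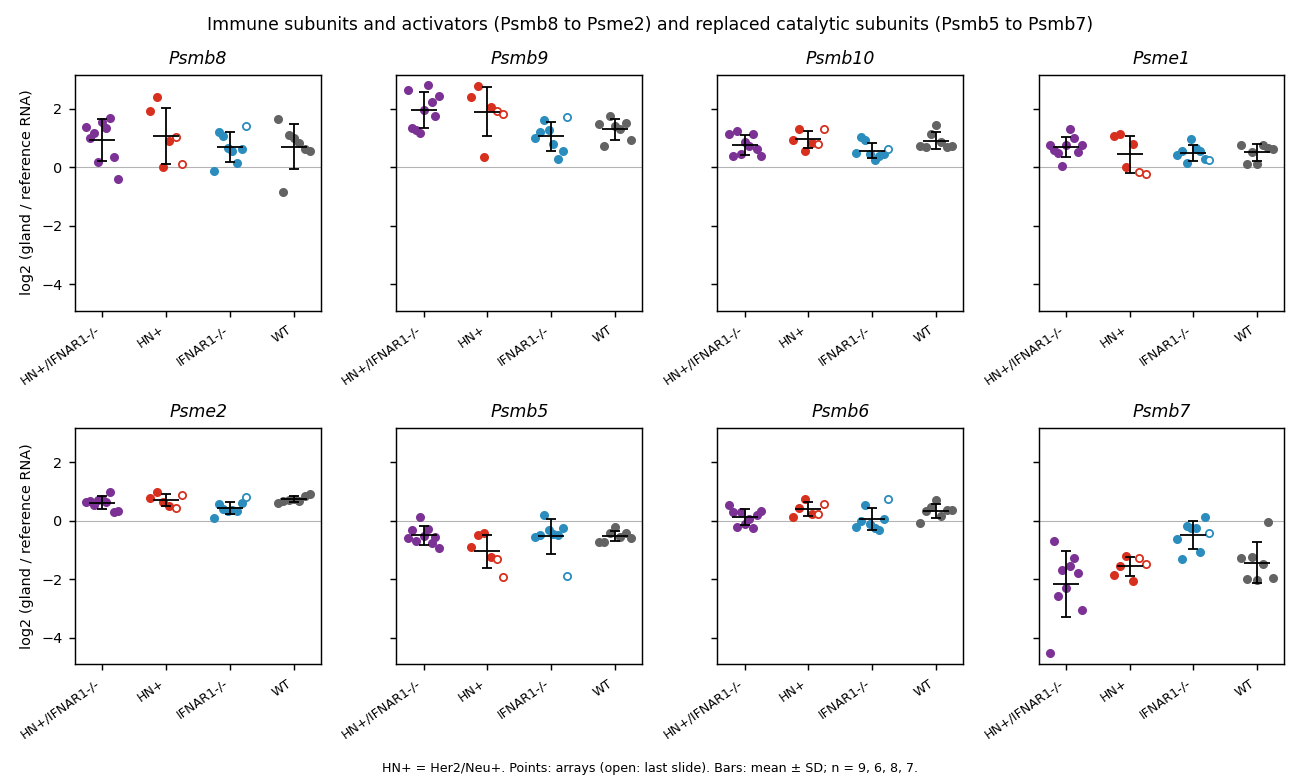
Log2 ratio of gland over reference on each array for the immune set (Psmb8, Psmb9, Psmb10, Psme1, Psme2) and for the subunits that Psmb8, Psmb9 and Psmb10 replace (Psmb5, Psmb6, Psmb7); bars give mean ± SD with 9, 6, 8 and 7 glands, and open points are the last slide. Psmb10 and Psme2 are above 0 on every array, and Psmb7 is above 0 on 1 IFNAR1-/- array only.

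Psmb5 and Psmb6, the other replaced subunits, gave no called difference. Psmb5 had medians of -0.57, -1.06, -0.47 and -0.56 in Her2/Neu+/IFNAR1-/-, Her2/Neu+, IFNAR1-/- and WT glands, with a range over all arrays from -1.92 in Her2/Neu+ 119 to 0.19 in IFNAR1-/- 42. The 2 lowest values were on the last slide, and the Her2/Neu+ against WT difference of -0.52 ± 0.259 was -0.23 ± 0.203 without it. Psmb6 had medians of 0.21, 0.33, -0.05 and 0.36 in the same order, and its largest difference, IFNAR1-/- against WT, was -0.27 ± 0.180 (limma adjusted p = 0.807).

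Each immune subunit was also set against the one it replaces on the same array, as a description with no test. Psmb10 minus Psmb7 averaged 2.92 ± 1.30 (SD, n = 9) in Her2/Neu+/IFNAR1-/- glands, 2.52 ± 0.475 (n = 6) in Her2/Neu+ glands, 1.06 ± 0.622 (n = 8) in IFNAR1-/- glands and 2.32 ± 0.827 (n = 7) in WT glands. It was lowest in IFNAR1-/- glands, and 6 of the 9 Her2/Neu+/IFNAR1-/- glands were above all 8 of them. The gap of 1.86 between these 2 groups holds the Psmb7 difference of -1.66 and the Psmb10 difference of 0.20. Psmb9 minus Psmb6 averaged 1.82 ± 0.625 in Her2/Neu+/IFNAR1-/-, 1.498 ± 1.02 in Her2/Neu+, 0.99 ± 0.305 in IFNAR1-/- and 0.97 ± 0.422 in WT glands. Here 7 of the 9 Her2/Neu+/IFNAR1-/- glands were above all IFNAR1-/- glands, and 4 of the 6 Her2/Neu+ glands were above all WT glands. Psmb8 minus Psmb5 averaged 1.42 ± 0.786, 2.10 ± 0.894, 1.21 ± 0.912 and 1.22 ± 0.731 in the same order of groups. The single highest Psmb8 minus Psmb5 in IFNAR1-/- glands, 3.28, was on the last slide, and the group mean without it was 0.92 ± 0.401.

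**Figure D5:**
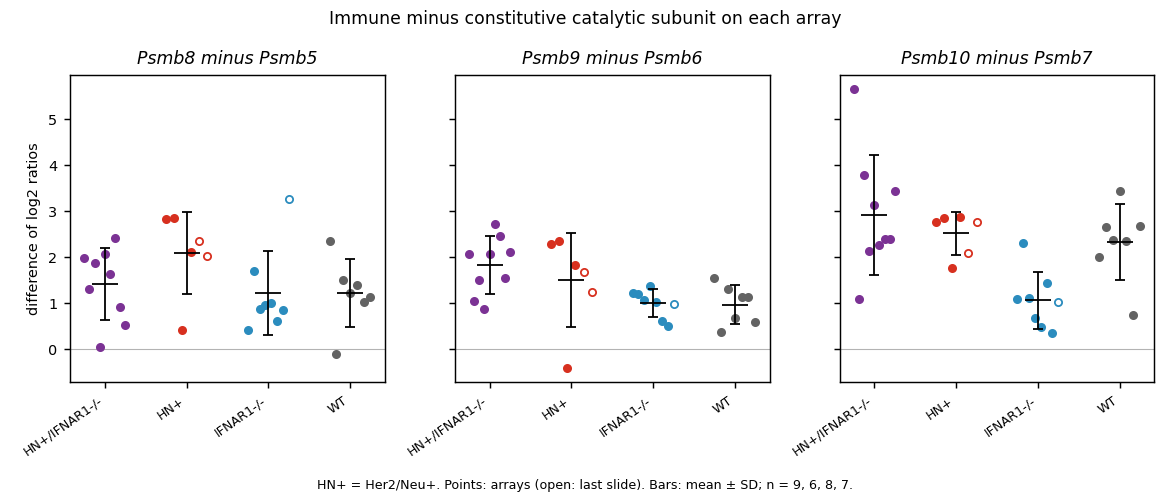
Immune minus replaced catalytic subunit on each array, as difference of log2 ratios; bars give mean ± SD with 9, 6, 8 and 7 glands, and open points are the last slide. Psmb10 minus Psmb7 averages 1.06 in IFNAR1-/- glands and 2.92, 2.52 and 2.32 in Her2/Neu+/IFNAR1-/-, Her2/Neu+ and WT glands.

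None of the 5 immune genes was called in any contrast. In Her2/Neu+/IFNAR1-/- against IFNAR1-/- glands all 5 were higher, with a median change of 0.21, but so were 61.8% of all genes, with a median of 0.15. In IFNAR1-/- against WT glands all 5 were lower, with a median of -0.24. The 38 other proteasome genes had a median of -0.01 and all genes one of -0.08, with 6651 of all 11463 genes lower. After median centring 3 of the 5 immune genes were lower, and without the last slide 4 of the 5 (median -0.33). In Her2/Neu+ against WT glands 3 of the 5 were higher (median 0.06, all genes -0.02; without the last slide 4 of the 5, median 0.25), and in Her2/Neu+/IFNAR1-/- against Her2/Neu+ glands 2 of the 5 (median -0.08, all genes 0.11; without the last slide 1 of the 5, median -0.11). Markers of all leukocytes, which carry immune subunits, had a mean per gland from -0.06 to 2.67 in Her2/Neu+/IFNAR1-/-, -0.24 to 3.20 in Her2/Neu+, -0.35 to 2.47 in IFNAR1-/- and 0.04 to 2.09 in WT glands. Of the 5 leukocyte genes, 4 were lower in IFNAR1-/- than in WT glands (median -0.70) and 3 were higher in Her2/Neu+/IFNAR1-/- than in IFNAR1-/- glands (median 0.32), with none called. Without the last slide all 5 were lower in the first of these contrasts (median -0.997). All 5 were then higher in the second (median 0.46), with none called in either. In the second of these contrasts the measured markers of B cells were higher in 4 of 4 (median 0.84), of T and NK cells in 5 of 6 (0.44), of plasma cells in 4 of 5 (0.69), of dendritic cells in 2 of 2 (0.89) and of macrophages in 6 of 8 (0.29), with none called. Without the last slide these counts were the same except for macrophages, with 5 of 8. The plasma cell marker Jchain was then called, where 3.36% of all genes passed. In IFNAR1-/- against WT glands macrophage markers went the other way from the immune set, with 6 of 8 higher (median 0.27). Without the last slide 5 of 8 were higher (median 0.34). With all arrays, B cell markers were lower there in 3 of 4 and T and NK cell markers in 5 of 6. Plasma cell markers were lower in 3 of 5 and dendritic cell markers in 2 of 2, with no gene of these lists called. In Her2/Neu+ against WT glands 3 of the 5 leukocyte genes were lower (median -0.34), and without the last slide 4 of the 5 (median -0.64). In Her2/Neu+/IFNAR1-/- against Her2/Neu+ glands 3 of the 5 were lower (median -0.11). Without the last slide 4 of the 5 were higher there (median 0.17), with none called. Without that slide both leukocyte medians were opposite in sign to those of the immune set. The part of these cell types in the immune set's differences was not tested.

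The activator genes Psme1 and Psme2, which form the interferon-induced ring on the core, gave no called difference. Psme1 had medians of 0.75, 0.41, 0.49 and 0.63 in Her2/Neu+/IFNAR1-/-, Her2/Neu+, IFNAR1-/- and WT glands. The 2 Her2/Neu+ arrays of the last slide were its lowest, at -0.18 and -0.25, and the only ones below 0. The Psme1 difference between Her2/Neu+ and WT glands was -0.07 ± 0.236 and, without that slide, 0.25 ± 0.233. Psme2 had medians of 0.66, 0.72, 0.38 and 0.72, was above 0 on all 30 arrays, and was below every WT gland in 6 of the 8 IFNAR1-/- glands. That difference, IFNAR1-/- minus WT, was -0.30 ± 0.142 (unadjusted p = 0.0426, limma adjusted p = 0.725), and -0.35 ± 0.132 without the last slide. It rested mainly on 1 of the 2 probes kept for Psme2, which gave -0.58 and -0.02 in this contrast.

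The interferon-independent activators Psme3, a nuclear ring on the core, and Psme4, a single large chain, were among the members closest to the threshold in Her2/Neu+/IFNAR1-/- against IFNAR1-/- glands. Psme3 ran from 1.88 to 3.20 (median 2.54) in Her2/Neu+/IFNAR1-/- glands, from 0.99 to 2.26 (median 1.81) in Her2/Neu+ glands, from 1.13 to 2.22 (median 1.80) in IFNAR1-/- glands and from 1.78 to 2.34 (median 2.10) in WT glands. In 6 of the 9 double-genotype glands it was above every Her2/Neu+ gland and above every IFNAR1-/- gland. The difference from IFNAR1-/- glands was 0.65 ± 0.200 (limma adjusted p = 0.0865), that from Her2/Neu+ glands was 0.73 ± 0.217 (adjusted p = 0.216), and the interaction was 1.01 ± 0.304 (unadjusted p = 0.00247, adjusted p = 0.432). Psme3 values depended on scaling: the first of these differences was 0.33 after quantile normalization. Psme4 ran from -0.08 to 2.74 (median 1.22) in Her2/Neu+/IFNAR1-/- glands and from -0.30 to 0.62 (median 0.00) in IFNAR1-/- glands, a difference of 0.99 ± 0.311 (adjusted p = 0.0915). Of the 60 Psme4 probe values, 26 occur digit for digit elsewhere on the same array, so they are less certain.

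The remaining beta-ring genes, Psmb1, Psmb2, Psmb3 and Psmb4, gave no called difference, and those of Psmb3 and Psmb4 between Her2/Neu+ and WT glands rested on the last slide. Psmb4 ran from -0.96 to -0.22 in Her2/Neu+/IFNAR1-/- glands and from -2.48 to 0.37 in Her2/Neu+ glands, against -0.99 to -0.07 in IFNAR1-/- glands and -0.66 to 0.40 in WT glands. In Her2/Neu+ against WT glands Psmb4 differed by -0.77 ± 0.337 and Psmb3 by -0.63 ± 0.241 with all arrays. Without the last slide these values were -0.05 ± 0.249 and -0.10 ± 0.157. Psmb1 was above the WT mean in all 8 IFNAR1-/- glands, with a difference of 0.44. Psmb2 differed by 0.79 in Her2/Neu+ against WT glands, the highest of all 43 genes in that contrast, but 16 of its 30 values are repeated ones and its SD was 1.22 in Her2/Neu+ and 1.14 in WT glands.

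Among the alpha-ring genes, Psma6 showed the widest differences in both pairwise contrasts that involve IFNAR1-/- glands. It had medians of -1.02, -1.08, -0.66 and -0.99 in Her2/Neu+/IFNAR1-/-, Her2/Neu+, IFNAR1-/- and WT glands, and 7 of the 8 IFNAR1-/- glands were above every WT gland. The difference was 0.66 in IFNAR1-/- against WT glands and -0.88 ± 0.321 in Her2/Neu+/IFNAR1-/- against IFNAR1-/- glands (limma adjusted p = 0.139), where 6 of the 9 double-genotype glands were below all 8. Its interaction was -0.77, and -1.10 without the last slide. In this pattern, highest in IFNAR1-/- glands, Psma6 resembled Psmb7. Psma3 had one of the 3 largest negative differences in Her2/Neu+ against WT glands, -0.67, and in IFNAR1-/- against WT glands, -0.39. Its lowest value, -2.95, was in Her2/Neu+ 114 on the last slide. Without that slide the Psma3 differences were -0.23 and -0.20 and no longer among the 3 largest. Psma1, Psma2, Psma4, Psma5 and Psma7 had group means between -0.88 and -0.08.

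The 6 cap ATPases, Psmc1 to Psmc6, which unfold substrates, were all lower in Her2/Neu+/IFNAR1-/- than in Her2/Neu+ glands, with differences between -1.01 and -0.06, and none was called. Of all 11463 genes 4693 were lower in this contrast. The smallest of the 6 differences, that of Psmc3, is the mean of 2 probes that disagreed, at -0.23 and 0.10. With the arrays of set 2 alone 5 of the 6 were lower. Their median change was -0.39, where all genes had 0.11. Without the last slide, which holds 2 of the 6 Her2/Neu+ arrays, all 6 were still lower, with a median of -0.16 beside 0.14 for all genes, and Psmc5 differed by -0.21, against -0.61 with all arrays. Psmc4 gave the widest of these differences: it ran from -2.25 to 0.84 (median -1.12) in Her2/Neu+/IFNAR1-/- glands and from -0.49 to 0.96 (median -0.11) in Her2/Neu+ glands. In 7 of the 9 double-genotype glands it was below every Her2/Neu+ gland, a difference of -1.01 ± 0.357 (unadjusted p = 0.00804, limma adjusted p = 0.299), and -0.74 ± 0.404 without the last slide. Against IFNAR1-/- glands it differed by -0.85 ± 0.329 (adjusted p = 0.164), and the interaction was -1.20 ± 0.5 (adjusted p = 0.5). Psmc5 had the only group means above 0.5 in this class, 0.61 to 1.22, and Psmc6 the lowest, -1.52 to -0.79.

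Of the 14 other cap genes none was called. Psmd2, a scaffold of the cap base that docks ubiquitin-like domains, was lowest in Her2/Neu+ glands. It ran from -0.40 to 0.66 (median -0.08) in Her2/Neu+/IFNAR1-/- glands and from -2.21 to -0.37 (median -0.70) in Her2/Neu+ glands, against -1.60 to 0.43 (median -0.00) in IFNAR1-/- glands and -0.52 to 0.29 (median -0.09) in WT glands. All 6 Her2/Neu+ glands were below the WT mean and 5 of them below every WT gland. The difference was -0.87 ± 0.288 (limma adjusted p = 0.194) against WT, and Her2/Neu+/IFNAR1-/- minus Her2/Neu+ was 1.00 ± 0.273 (adjusted p = 0.175). Without the last slide these were -0.45 ± 0.208 and 0.58 ± 0.199 (adjusted p = 0.529 and 0.403). The Psmd2 interaction was 1.02 ± 0.383 (adjusted p = 0.483), and without the last slide it was 0.40 ± 0.267.

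Psmd6, a subunit of the cap lid, ran from -2.81 to -0.87 (median -1.91) in Her2/Neu+/IFNAR1-/- glands and from -3.19 to -0.15 (median -0.64) in IFNAR1-/- glands. The lowest IFNAR1-/- value was on the last slide. With all arrays the difference was -0.80 ± 0.353 (limma adjusted p = 0.219). Without that slide it was -1.11 ± 0.287 and passed (adjusted p = 0.0343), where 3.36% of all genes passed. Psmd14, the deubiquitinase of the cap, differed by 0.68 in Her2/Neu+ against WT glands and by -0.71 in Her2/Neu+/IFNAR1-/- against Her2/Neu+ glands. Psmd7, its partner in the lid, differed by -0.65 in Her2/Neu+/IFNAR1-/- against Her2/Neu+ glands. Psmd4, a ubiquitin receptor, differed by -0.54 ± 0.261 in IFNAR1-/- against WT glands (adjusted p = 0.725). Psmd1, Psmd3, Psmd5 and Psmd8 to Psmd13 gave differences of at most 0.89 in size, the highest being the interaction of Psmd9, which was 1.18 without the last slide. Of the Psmd9 probe values 66.7% are repeated ones. Its 2 probes disagreed in Her2/Neu+/IFNAR1-/- against Her2/Neu+ glands, at 0.03 and 1.34.

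The pair of genes that share only the letters gave no called difference. Psmc3ip, a partner of the meiotic recombination machinery, had the largest positive difference of all 43 genes in Her2/Neu+/IFNAR1-/- against IFNAR1-/- glands, 1.36 ± 0.451 (limma adjusted p = 0.108), and in the interaction, 1.65. It also had the largest negative one in IFNAR1-/- against WT glands, -0.84, and was higher by 0.81 in Her2/Neu+/IFNAR1-/- against Her2/Neu+ glands. Leaving out the last slide, that last difference was 1.25 and the interaction 2.22. Of its 30 values, 26 are repeated ones, the highest share among the 43 genes. Psme3ip1, a nuclear partner of Psme3, gave no unadjusted p under 0.05.

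Within the immune set, levels of most pairs of genes were correlated from gland to gland. The 10 pairs of immune-set genes and the 3 replacement pairs, 13 relations, were correlated over the 30 arrays with permutation p from 100000 resamples, and 7 of the 10 immune pairs had an adjusted Pearson p under 0.05 and 6 an adjusted Spearman p under 0.05. Arrays were permuted without regard to group or slide, so differences between groups or slides can enter these p. Over those 7 pairs r ran from 0.38 to 0.80 in array set 1 and from 0.23 to 0.74 in array set 2. Psmb8 and Psmb9 gave r = 0.58 (permutation p = 0.00076, adjusted 0.00988) and rho = 0.58 (permutation p = 0.00108, adjusted 0.00702). Without the 2 glands farthest from the Psmb8 median r was 0.47, and it was 0.80 in array set 1, 0.31 in array set 2 and 0.60 without the last slide. Psmb8 and Psmb10 gave r = 0.52 and rho = 0.59 (permutation p = 0.0029 and 0.00061, adjusted 0.0126 and 0.00702), with r = 0.49 without the farthest 2 and r = 0.60 and 0.38 in the array sets. Psmb10 and Psme2 gave r = 0.53 and rho = 0.51 (permutation p = 0.00268 and 0.00421, adjusted 0.0126 and 0.014), with r = 0.48 without the farthest 2 and r = 0.38 and 0.74 in the array sets. After removing group means r was 0.58 for Psmb8 and Psmb9, 0.54 for Psmb8 and Psmb10 and 0.38 for Psmb10 and Psme2.

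Of the replacement pairs, Psmb8 and Psmb5 gave r = -0.01 and rho = -0.06 (permutation p = 0.979 and 0.737, adjusted 0.991 and 0.737), and Psmb9 and Psmb6 gave r = 0.17 and rho = 0.20 (permutation p = 0.361 and 0.3, adjusted 0.469 and 0.39). Psmb10 and Psmb7 gave r = -0.40 and rho = -0.40 (permutation p = 0.0273 and 0.029, adjusted 0.0443 and 0.0538). This r was -0.40 without the farthest 2, -0.42 and -0.26 in the array sets and -0.32 after removing group means. Psme1 and Psme2, which form 1 ring, gave r = 0.11 and rho = 0.08 (permutation p = 0.58 and 0.661, adjusted 0.685 and 0.737).

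The genes outside the proteasome whose values were most like the mean of Psmb8, Psmb9 and Psmb10 over the 30 arrays were Igtp (Pearson r = 0.82), H2-T23 (0.77), H2-Q7 (0.73), Kcnn4 (0.70), Sp140 (0.70), H2-Q5 (0.69), 1700025G04Rik (0.69), Ctss (0.67), H2-Q2 (0.66) and Zbp1 (0.66). They were the 10 highest of 8863 genes with a value on every array. Without the last slide r ran from 0.66 to 0.86 for these genes. H2-T23, H2-Q7, H2-Q5 and H2-Q2 are MHC class I genes, Igtp is an interferon-inducible GTPase, Zbp1 senses nucleic acids and Ctss is a lysosomal protease. Among the proteasome genes left, Psme2 (0.48) and Psme1 (0.48) came first, and Psmb7 (-0.33) and Psmd6 (-0.40) were the most opposite.

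Genes that work with the proteasome were described beside it. Of 20 listed genes for assembly, associated factors and regulators, 13 were measured and none was called in any contrast. The smallest p in Her2/Neu+/IFNAR1-/- against IFNAR1-/- glands were those of Nfe2l2, a regulator of antioxidant genes, with -0.87 ± 0.348 (limma adjusted p = 0.176), and Usp14, a deubiquitinase on the cap, with 0.36 ± 0.182 (adjusted p = 0.29). Of 15 listed genes for antigen processing and MHC class I, 12 were measured and none was called. In Her2/Neu+/IFNAR1-/- against IFNAR1-/- glands 11 of the 12 were higher (median 0.43), beside 61.8% of all genes (median 0.15). They were led by H2-K1 with 0.72 ± 0.270 (adjusted p = 0.148, and 0.0442 without the last slide) and Tap2 with 0.43 ± 0.189 (adjusted p = 0.225). Without the last slide 3.36% of all genes passed in this contrast. Tap1, between Psmb9 and Psmb8 on chromosome 17, differed by 0.77 ± 0.316 in Her2/Neu+ against WT glands (adjusted p = 0.301) and by -0.59 ± 0.300 in Her2/Neu+/IFNAR1-/- against Her2/Neu+ glands (adjusted p = 0.466).

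Of 16 listed interferon-gamma and shared interferon genes, 9 were measured and Gbp3 alone was called. Gbp3, an interferon-induced GTPase, rose by 2.22 ± 0.551 in Her2/Neu+/IFNAR1-/- relative to IFNAR1-/- glands (limma adjusted p = 0.0424). Its level averaged 2.02 ± 1.66 (SD, n = 9) in Her2/Neu+/IFNAR1-/- glands, 3.54 ± 0.312 (n = 6) in Her2/Neu+ glands, -0.20 ± 0.7 (n = 8) in IFNAR1-/- glands and 1.35 ± 1.31 (n = 7) in WT glands. Cxcl10, an interferon-induced chemokine, was next with 1.65 ± 0.516 (adjusted p = 0.0895). It passed without the last slide with 1.90 ± 0.536 (adjusted p = 0.0479), where 3.36% of all genes passed. In that contrast 8 of the 9 were higher, with a median of 1.04, beside 61.8% of all genes, with a median of 0.15. In IFNAR1-/- against WT glands 8 of the 9 were lower, with a median of -0.53 and none called. There 6651 of all 11463 genes were lower, with a median of -0.08.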

How the data were processed

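The authors deposited 1 table of log2 ratios of gland over reference for 20896 probes on 30 two-colour Agilent arrays. The log base is an inference from the scale, where no value exceeds 6 in size (64-fold), as is the direction from the dyes in the labels, per the labels' protocols Cy5 for gland and Cy3 for reference RNA from Stratagene. Background correction, normalization and filters are not given in the sources used here, and neither are intensities, so the number of arrays limits the precision.

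Probes were named by the platform annotation: 17376 had 1 symbol and 3520 had none. Probes needed values on 50% or more of each genotype's arrays; 16247 named probes met this and were averaged per gene into 11463 genes. All 43 genes matching the symbol rule were kept, on 62 of 63 probes; 32 have 1 probe and 11 have more, and the dropped probe is 1 of 3 for Psme2. No member value lay at the scale limit.

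All genes entered one limma 3.58.1 fit (R 4.3.3; lmFit, eBayes) with 4 group means; tests are two-sided, with Benjamini-Hochberg adjustment over all genes and a threshold of 0.05. The fit was tested on simulated data. Tables and permutation tests used Python 3.11.15, pandas 2.3.3 and scipy 1.17.1. A p-value here reflects only how these samples spread, since the labels do not say how independent they are. A value found with identical digits at another probe of its array is called repeated.

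The members, gene lists, markers and alternatives were chosen with earlier results of these data known. Named are the immune set with its replaced partners, members past the threshold, the 3 largest positive and negative differences per contrast, and 2 genes with the smallest p per further list; other members were named after their values were seen. Alternatives covered filters, scaling, probe choice, groups in the fit, weights, variance trend, slide, array set, array position, repeated values, thresholds and leaving out each array; omission of the last slide and the median of the probes were added after seeing the data.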

Additional observations from a re-analysis of the deposited data

Results flagged for a closer look

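Of 172 sets of values, 1 gene in 1 group each, 22 held a lowest or highest value that lay far from the rest of its group by Dixon's criterion, in 18 of the 43 genes. Chance alone flags about 1 in 20 such sets if the values are independent and normally distributed. The share over all genes was not counted, so the 22 do not set the members apart from other genes. Of the 22, 9 came from the 3 arrays of the last slide. On IFNAR1-/- 41 these were Psmb5 at -1.88, Psmc2 at 0.18, Psmc3 at -1.39, Psmd2 at -1.60 and Psmd8 at -2.94. On Her2/Neu+ 114 they were Psma3 at -2.95 and Psmd4 at -1.22, and on Her2/Neu+ 119 Psmd13 at 0.95 and Psme3ip1 at 1.99.

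The other 13 values came from arrays on other slides. In Her2/Neu+/IFNAR1-/- glands, Psma1 was at -2.15 and Psmd9 at 2.10 in sample 109, and Psma5 was at -2.57 in sample 108. Sample 106 held Psmc6 at -3.69, Psmd8 at -0.078 and Psmd10 at -0.73, and sample 102 held Psmb2 at -0.87. In Her2/Neu+ glands, Psmd9 was at -2.34 in sample 120. In IFNAR1-/- glands, Psmb1 was at -0.27 and Psme3ip1 at 1.97 in sample 42, and Psmb3 was at -0.63 in sample 45. In WT glands, Psmb7 was at -0.048 in sample 54, where the other 6 lay between -2.01 and -1.24, and Psmd13 was at -0.47 in sample 59. That Psmb7 value is one of the repeated ones.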

How the results depend on the processing

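The direction of the Psmb7 difference between Her2/Neu+/IFNAR1-/- and IFNAR1-/- glands held in every alternative, and its call did not. It was -1.66 when the fit held just the 2 groups compared, -1.67 with slide as a random block and -1.67 and -1.61 in array sets 1 and 2 alone, each time past no threshold, and the number of members past it was then 0. That number was also 0 at an adjusted p of 0.01, 2 with array weights (Psmb7 lower, Psmb9 higher), 2 without the last slide (Psmb7 and Psmd6 lower) and 4 at an adjusted p of 0.1 (Psmb7 lower; Psmb9, Psme3 and Psme4 higher). Leaving out 1 array at a time gave -1.84 to -1.36 for Psmb7 and 0 to 1 members. Array set 2 alone called 6 members in Her2/Neu+ against WT, 5 in Her2/Neu+/IFNAR1-/- against Her2/Neu+ and 4 in the interaction; both Her2/Neu+ arrays of that set are on the last slide. Quantile normalization moved the median of all genes in Her2/Neu+/IFNAR1-/- against IFNAR1-/- glands to 0.04, with 0.15 before it, and the split of all genes past the threshold to 41 higher and 67 lower, with 108 and 42 before it. In that contrast 150 genes passed, with 2 in array set 1, 6 in array set 2, 13 with the slide block, 14 at the strict threshold, 23 with the compared groups, 50 with array position, 261 with repeated values missing, 384 with array weights, 385 without the last slide and 499 at the loose threshold, and 35 to 325 with 1 array left out. In Her2/Neu+ against WT 15 passed, with 1 to 745 over the alternatives and 3 to 132 with 1 array left out; in IFNAR1-/- against WT 3 passed, with 0 to 25 and 3 to 5; in Her2/Neu+/IFNAR1-/- against Her2/Neu+ 9 passed, with 2 to 903 and 6 to 24; in the interaction 2 passed, with 0 to 494 and 0 to 3. The extremes were those of the array sets, or of array weights for 25. The causes were not tested. The interaction in a fit of just the compared groups, and Psmb2, Psmd14 and Psmc3ip with repeated values missing, could not be fitted. No difference past the threshold changed sign. Of 109 uncalled differences of the named members 44 changed sign in at least 1 alternative and 29 with 1 array left out, never past the threshold; the largest of them was -0.84 for Psmc3ip in IFNAR1-/- against WT glands, which changed sign in array set 1. Without the last slide 34 of 215 differences, over all 43 genes and 5 contrasts, changed sign. No paired analysis was possible because the groups share no sample numbers. Signal over background is not given in the sources used here, so weak probes could not be set apart.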

Other observations

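The genes that ran most opposite to the mean of Psmb8, Psmb9 and Psmb10 over the 30 arrays were Mpdu1 (Pearson r = -0.76), Dnm1 (-0.73) and Efemp1 (-0.66), among 8863 genes with a value on every array. Markers of plasma cells, which were 5 of 7 measured, averaged -1.06 in Her2/Neu+/IFNAR1-/-, -0.75 in Her2/Neu+, -1.39 in IFNAR1-/- and -1.35 in WT glands, with 1 gene, Xbp1, called in Her2/Neu+ against WT. Markers of B cells, 4 of 8 measured, averaged 0.87, 1.15, 0.32 and 1.30 in the same groups, with none called in any contrast. Gbp4, an interferon-induced GTPase, differed by -2.97 ± 0.958 in IFNAR1-/- against WT glands (limma adjusted p = 0.6).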
